A study of Mus musculus with 12 samples.

Results

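Mitochondrial ribosomal protein genes were followed across spheroid and monolayer cultures of C57BL/6 mouse mammary epithelial cells. They were taken as every row of the gene annotation in which a mouse symbol starts with Mrpl or Mrps and a number. That gave 78 of 28427 rows, 49 named for the large subunit and 29 for the small, which carry 76 symbols because Mrpl38 and Mrpl33 have 2 rows each. The 4 groups were spheroids at 48 h, monolayers at 48 h, spheroids at 96 h and monolayers at 96 h, with 3 libraries in each, described in the series as biological replicates. Spheroids grew inside Matrigel, a basement membrane gel, and monolayers grew on collagen, so that matrix and format changed together. All groups were kept in supplemented MEBM, a mammary epithelial medium, to which progesterone (1 µM) and prolactin (1 µg/mL) had been added. The title of the series gives its subject as chromosome segregation. The spheroid gels received fresh medium after 48 h.

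The mitochondrial ribosome translates the few proteins encoded by mitochondrial DNA, all of them parts of the respiratory chain or the ATP synthase. Its ribosomal RNAs come from mitochondrial DNA, whereas its proteins are encoded in the nucleus and imported. The large subunit joins amino acids into a chain, and the small subunit holds the messenger and decodes it. Some proteins of each subunit have bacterial homologues and others are found only in mitochondria. 3 symbols do not follow the placement of their proteins: Mrps30 and Mrps18a belong to the large subunit, and the Mrps36 protein belongs to the 2-oxoglutarate dehydrogenase complex.

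The libraries held 7674105 to 13554497 counts each. Levels are CPM, which are counts relative to the TMM-scaled library size, or FPKM, which also divides by transcript length, where genes are compared with each other. A gene rose or fell if its adjusted p in edgeR's quasi-likelihood test was under 0.05 over the 13951 rows tested, and the p-values measure the spread between these libraries. Among the monolayers at 48 h replicate 3 stood apart: its chi-square per degree of freedom was 17.2 with replicate 1 and 9.23 with replicate 2. Replicates 1 and 2 had 4.91 between them, and the pairs of replicates in the other groups had 2.4 to 6.74. The epithelial label was met by Epcam, an epithelial adhesion molecule, at 827 to 1480 CPM in all 12 libraries. The 8 epithelial markers summed to 6390 to 6880 CPM in 48 h spheroids and 11000 to 12700 CPM in 48 h monolayers, and to 6600 to 6940 CPM in 96 h spheroids and 4800 to 5160 CPM in 96 h monolayers. Of these 8, 2 rose and 5 fell at 48 h, and 6 rose and 1 fell at 96 h. The keratin Krt14 had 1030, 1080 and 988 CPM in 48 h spheroids, against 465, 482 and 534 CPM in 48 h monolayers. At 96 h it had 901, 912 and 909 CPM in spheroids, against 70.1, 67.1 and 83.4 CPM in monolayers. Krt8 had 2080, 2280 and 2070 CPM in 48 h spheroids, against 3940, 4250 and 4540 CPM in 48 h monolayers. The 10 fibroblast markers summed to 2020 to 2290 CPM in 48 h spheroids, 7800 to 8580 CPM in 48 h monolayers, 696 to 753 CPM in 96 h spheroids and 1770 to 2430 CPM in 96 h monolayers. Of these 10, 3 rose and 6 fell at 48 h, and 2 rose and 6 fell at 96 h. The collagens Col1a1 and Col1a2 made up most of the sum, and at 48 h they averaged 719 ± 73.1 and 601 ± 49.1 CPM in spheroids and 4030 ± 219 and 3060 ± 155 CPM in monolayers (SD). Pdgfra, the defining fibroblast receptor, was higher in 48 h spheroids, with 85.2 to 96.7 CPM, against 42.8 to 52.6 CPM in 48 h monolayers, and lower in 96 h spheroids, with 17.3 to 19.2 CPM, against 119 to 153 CPM in 96 h monolayers. Endothelial markers (8 genes) summed to 58.6 to 69.8 CPM in 48 h spheroids, 46.3 to 63.2 CPM in 48 h monolayers, 27.5 to 34.5 CPM in 96 h spheroids and 73.6 to 79.2 CPM in 96 h monolayers, with 2 of the 8 higher and 3 lower at 48 h, and 1 higher and 7 lower at 96 h. Vwf, the von Willebrand factor, held much of the spheroid sums, with 28.0 to 30.3 CPM in 48 h spheroids, against 3.84 to 5.88 CPM in 48 h monolayers. The defining marker Pecam1 had 6.6 to 10.2 CPM in 48 h spheroids, against 8.04 to 12.4 CPM in 48 h monolayers, and 1.68 to 1.93 CPM in 96 h spheroids, against 15.9 to 17.9 CPM in 96 h monolayers. Adipocyte markers (8 genes) summed to 310.0 to 343 CPM in 48 h spheroids, 42.0 to 48.4 CPM in 48 h monolayers, 65.6 to 69.2 CPM in 96 h spheroids and 60.1 to 85.8 CPM in 96 h monolayers, with Adipoq at 5, 0, 13 and 2 counts summed over the same groups. Of the 4 tested, 4 rose at 48 h, and 3 rose and 1 fell at 96 h. Fabp4 held most of the sum in 48 h spheroids, with 271 to 303 CPM, against 30.8 to 36.1 CPM in 48 h monolayers. Lipe had 13.5 to 14.5 CPM in 96 h spheroids, against 5.26 to 5.59 CPM in 96 h monolayers. Immune markers (8 genes) summed to 18.2 to 41.9 CPM over all libraries, and their defining gene Ptprc had at most 8 counts in any group. Of the 3 tested, 1 rose and 0 fell at 48 h, and 1 rose and 1 fell at 96 h. Cd68 had 3.59, 5.76 and 5.71 CPM in 96 h spheroids, against 30.0, 24.6 and 20.1 CPM in 96 h monolayers. Itgam had 26.0, 25.3 and 22.5 CPM in 96 h spheroids, against 8.87, 10.6 and 14.1 CPM in 96 h monolayers. The part of these markers in the results below was not tested, and in bulk RNA fewer cells of a type and less RNA per cell cannot be told apart.

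The genes together made up 0.187% to 0.275% of the counts of a library. Of the 78 rows, 77 passed the filter on low counts. The row that did not is the second of Mrpl33, a noncoding entry, with 2 counts over the 48 h spheroids, 2 over the 48 h monolayers, 0 over the 96 h spheroids and 6 over the 96 h monolayers. The tested rows had a median level of 28.5 FPKM, against 8.9 FPKM for all 13951 tested rows. The middle 50% of them lay between 17.2 and 36.2 FPKM. Large-subunit genes had a median of 29.1 FPKM and small-subunit genes of 27.9 FPKM. Mrpl52, a large-subunit protein found only in mitochondria, had the highest mean level, 143 FPKM. Mrpl33, homologue of the bacterial protein L33, followed with 119 FPKM, and Mrps21, homologue of S21, with 112 FPKM. The lowest tested were the second row of Mrpl38 with 2.26 FPKM and Mrps25 with 3.83 FPKM. The order of the levels was much alike in the 4 groups: between any pair of groups, Spearman's rho across the 77 genes was at least 0.89, a description over genes that share libraries and transcript lengths.

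**Figure D1:**
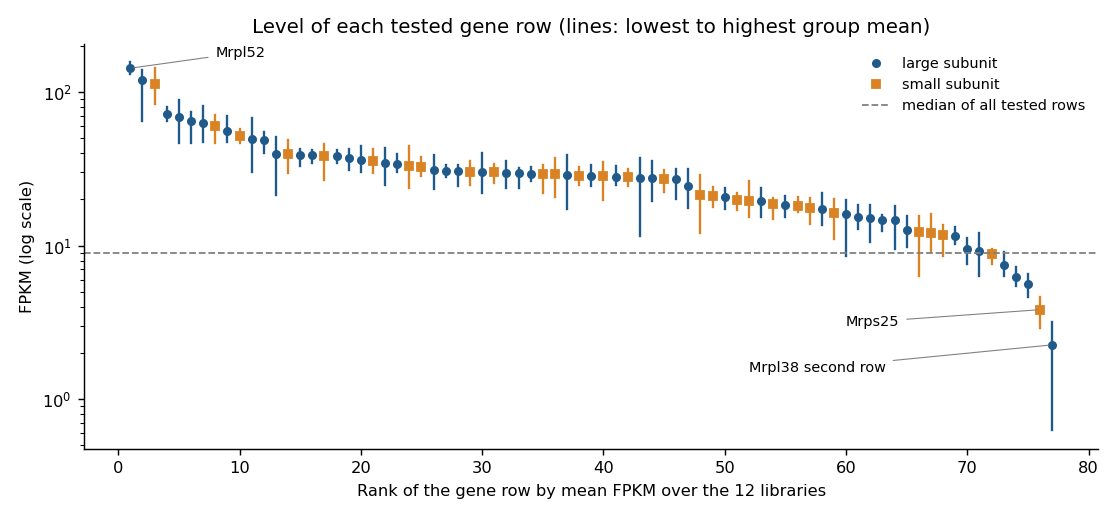
FPKM (log axis) of the 77 tested rows, ranked by mean level, with the large subunit in blue circles and the small subunit in orange squares. Points are means over the 12 libraries, lines run between the lowest and the highest group mean, and the dashed line is the median of all tested rows; both subunits spread over the whole range, between 143 FPKM for Mrpl52 and 2.26 FPKM for the second row of Mrpl38.

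Summed over the genes, both subunits were higher in spheroids than in monolayers at each time. Large-subunit genes summed to 1665, 1798 and 1749 CPM in 48 h spheroids, against 1289, 1441 and 1607 CPM in 48 h monolayers. At 96 h the sums were 1754, 1799 and 1758 CPM in spheroids, against 1214, 1218 and 1240 CPM in monolayers. The groups did not overlap at either time. Small-subunit genes summed to 863.3, 926.7 and 887.7 CPM in 48 h spheroids, against 670.5, 753.5 and 836.3 CPM in 48 h monolayers. At 96 h they summed to 909.1, 951.6 and 920.8 CPM in spheroids, against 634.9, 627.4 and 649.7 CPM in monolayers. Within the 48 h monolayers, replicate 1 was lowest and replicate 3 highest for both subunits. All genes together averaged 2630 ± 97.7 CPM in 48 h spheroids and 2199 ± 242 CPM in 48 h monolayers, and 2697 ± 46.3 CPM in 96 h spheroids and 1861 ± 24.9 CPM in 96 h monolayers (SD, n = 3 each).

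The ratio of the subunits was much alike in all groups. The large-subunit sum over the small-subunit sum was 1.93, 1.94 and 1.97 in 48 h spheroids and 1.92, 1.91 and 1.92 in 48 h monolayers. It was 1.93, 1.89 and 1.91 in 96 h spheroids and 1.91, 1.94 and 1.91 in 96 h monolayers. All 12 ratios lay between 1.89 and 1.97. At 48 h the lowest spheroid ratio, 1.93, was just above the highest monolayer ratio, 1.92, and at 96 h the groups overlapped. The difference at 48 h was not tested. The sums follow the symbols, so Mrps30, Mrps18a and Mrps36 are counted with the small subunit.

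**Figure D2:**
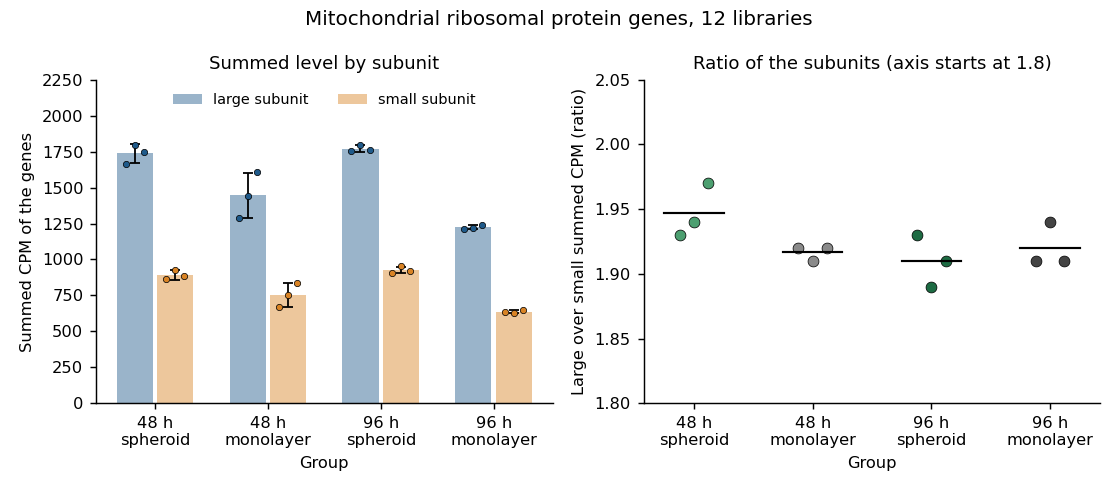
Left, summed CPM of the large-subunit (blue) and small-subunit (orange) genes in each library (points) with the group mean (bar) and SD (whisker, n = 3); right, the ratio of the sums per library with the group mean as a line, on an axis that starts at 1.8. Both sums are higher in spheroids than in monolayers of the same time, and the ratios lie between 1.89 and 1.97.

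At 48 h, 38 of the 77 tested rows rose in spheroids and 2 fell, beside 31.6% of all tested rows that rose and 26.4% that fell. The median log2 fold change of the 77 was 0.21, against 0.05 over all tested rows. The rises were small, between 0.20 and 0.69 on the log2 scale. With replicate 3 of the 48 h monolayers left out 49 rows rose, beside 4443 of all 14139 rows tested in that fit. With replicate 1 left out 30 did, beside 4266 of 14250. In 34 genes every spheroid library exceeded every monolayer library, against 32.6% of all tested rows, and in 0 every one was below, against 27.4%. In the large subunit 25 of 48 rows rose and 1 fell, with a median of 0.26, and in the small subunit 13 of 29 rose and 1 fell, with a median of 0.20. The difference of the medians, 0.055, was not tested. Per library, the median deviation of log2 CPM from each gene's mean, large minus small subunit, averaged 0.00767 ± 0.0356 in spheroids and -0.0207 ± 0.0212 in monolayers (SD, n = 3 each), and the groups overlapped.

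The largest rises at 48 h came from both subunits. Mrpl16, homologue of the bacterial L16, which sits near the peptidyl transferase centre, had 20.3, 19.7 and 20.5 CPM in spheroids, against 10.4, 12.1 and 14.8 CPM in monolayers (log2 fold change 0.69 ± 0.115 SE, adjusted p = 4.73e-05). Mrps7, homologue of S7 in the head of the small subunit, had 55.4, 59.7 and 57.5 CPM in spheroids, against 31.4, 35.1 and 41.4 CPM in monolayers (0.68 ± 0.086 SE, adjusted p = 2e-06). In both genes the groups were separate, with the monolayers the more scattered. Mrpl18, homologue of L18, averaged 62.4 ± 7.75 CPM in spheroids and 39.7 ± 5.53 CPM in monolayers (SD), a log2 fold change of 0.65 ± 0.0966 (SE). Mrpl12, homologue of the stalk protein L12 and reported in human cells to bind the mitochondrial RNA polymerase, had 74.3, 85.9 and 84.1 CPM in spheroids, against 44.0, 56.1 and 55.8 CPM in monolayers. Its log2 fold change was 0.64 ± 0.0895 (SE, adjusted p = 6.08e-06), and every spheroid library was above every monolayer library. Mrpl38, a mitochondria-only protein of the large subunit, averaged 53.3 ± 3.31 CPM in spheroids and 34.5 ± 0.703 CPM in monolayers (SD), a log2 fold change of 0.63 ± 0.0687 (SE).

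The 2 genes that fell at 48 h did so by little. Mrps36 had 22.5, 19.4 and 18.2 CPM in spheroids, against 21.1, 26.6 and 26.9 CPM in monolayers, with overlapping groups (-0.31 ± 0.109 SE, adjusted p = 0.0219). Without replicate 2 or 3 of either group, its adjusted p lay between 0.0646 and 0.102. Mrpl24, homologue of L24 at the exit tunnel, had 42.2, 39.8 and 38.3 CPM in spheroids, against 40.6, 47.3 and 51.4 CPM in monolayers, also overlapping (-0.21 ± 0.0883 SE, adjusted p = 0.0475). With total-count scaling or with limma on the log2 FPKM values, 0 members fell, beside 2961 and 2855 of all 13951 tested rows.

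The rises were also counted by origin, and the difference between the counts was not tested. At 48 h, 21 of 31 rows of mitochondria-only proteins rose (67.7%) and 1 fell, with a median log2 fold change of 0.33. Of 46 rows with bacterial homologues, 17 rose (37.0%) and 1 fell, with a median of 0.19. Of all tested rows 31.6% rose and 26.4% fell, so the share of rises with bacterial homologues was near that over all rows. The 31 rows include Mrps36 and the second row of Mrpl38. At 96 h, 24 of 31 mitochondria-only rows rose (77.4%, median 0.62) and 0 fell. Of 46 rows with bacterial homologues, 36 rose (78.3%, median 0.50) and 1 fell, beside 37.3% and 36.5% of all tested rows.

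At 96 h, 60 of the 77 rows rose in spheroids and 1 fell, beside 37.3% of all tested rows that rose and 36.5% that fell. The median log2 fold change of the 77 was 0.59, where that over all tested rows was 0.00 after rounding. In 70 genes every spheroid library was above every monolayer library, against 40.0% of all tested rows; in 1 gene all were below, against 38.9%. In the large subunit 36 of 48 rows rose, with a median of 0.58, and in the small subunit 24 of 29 rose, with a median of 0.59. The medians of the subunits differed by -0.01 (large minus small), which was not tested. The same per-library measure averaged 0.002 ± 0.0252 in spheroids and 0.033 ± 0.0168 in monolayers (SD, n = 3 each), again with overlap. With Mrps30 and Mrps18a placed in the large subunit and Mrps36 left out, the difference was -0.126, with medians of 0.55 and 0.67.

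The largest changes at 96 h reached more than 2-fold. Mrpl36, homologue of the bacterial L36, had 31.3, 34.2 and 31.4 CPM in spheroids, against 8.39, 10.0 and 10.4 CPM in monolayers (log2 fold change 1.76 ± 0.128 SE, 3.38-fold, adjusted p = 5.58e-10). Mrps14, homologue of S14, had 28.9, 33.1 and 30.9 CPM in spheroids, against 11.9, 10.9 and 12.9 CPM in monolayers (1.37 ± 0.111 SE, adjusted p = 2.49e-09). All spheroid libraries of both genes had more than 2 times the level of any monolayer library. Mrpl54, a mitochondria-only large-subunit protein, had 28.7, 29.6 and 26.0 CPM in spheroids, against 9.83, 11.6 and 12.2 CPM in monolayers (1.33 ± 0.111 SE, adjusted p = 3.98e-09). Mrps28, a small-subunit protein, had 20.5, 21.1 and 18.3 CPM in spheroids, against 7.51, 6.38 and 9.69 CPM in monolayers (1.32 ± 0.138 SE, adjusted p = 8.49e-08). These groups too were far apart. Mrpl48, another mitochondria-only protein of the large subunit, had 34.8, 34.9 and 34.4 CPM in spheroids, against 14.5, 13.4 and 15.7 CPM in monolayers (1.25 ± 0.0904 SE, adjusted p = 5.25e-10). The second row of Mrpl38 had a larger ratio at a much lower level, with 3.06, 3.70 and 2.23 CPM in spheroids and 0.32, 0.626 and 0.793 CPM in monolayers (2.37 ± 0.365 SE, adjusted p = 1.16e-05). Reads of this row and of the main Mrpl38 row may have been split between them by the counting, so that its value is uncertain.

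Mrpl24 was the gene that fell at 96 h, with 50.2, 44.0 and 46.8 CPM in spheroids, against 59.1, 58.4 and 52.6 CPM in monolayers (-0.27 ± 0.0839 SE, adjusted p = 0.0075). The monolayers were all higher. Mrpl52, the gene with the highest level, had 39.8, 41.2 and 37.0 CPM in spheroids and 38.4, 38.8 and 39.7 CPM in monolayers at 96 h, a log2 difference of 0.01 ± 0.0925 (SE, adjusted p = 0.922), whose sign changed with the scaling. Its level in the 48 h groups overlapped as well. Mrps25, the tested small-subunit gene with the lowest level per length, rose at both times, with log2 fold changes of 0.41 ± 0.116 (SE) at 48 h and 0.73 ± 0.116 (SE) at 96 h.

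**Figure D3:**
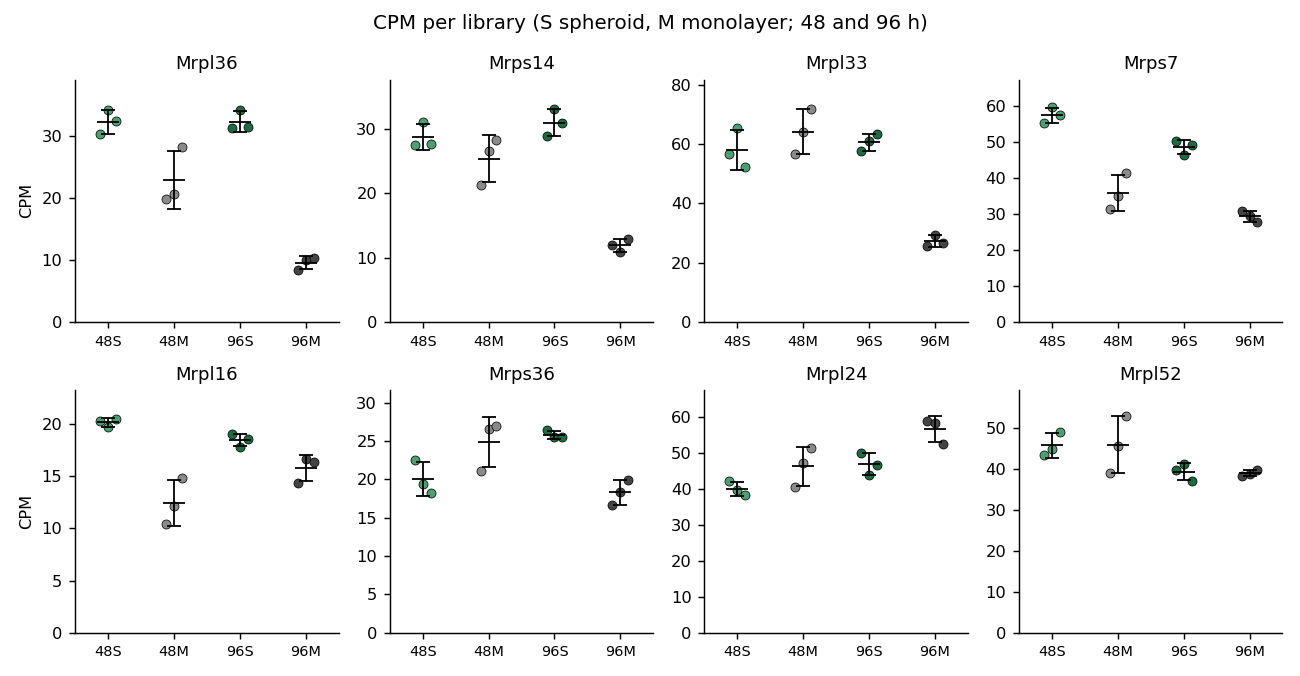
CPM in each of the 12 libraries for 8 genes of the group, with the mean and SD (n = 3) of 48 h spheroids (48S), 48 h monolayers (48M), 96 h spheroids (96S) and 96 h monolayers (96M), each axis starting at 0. Mrpl36, Mrps14 and Mrpl33 are lowest in 96 h monolayers, Mrps7 and Mrpl16 are higher in spheroids than in monolayers at 48 h, Mrps36 is lower in spheroids at 48 h and higher at 96 h, Mrpl24 is highest in 96 h monolayers, and Mrpl52 overlaps between formats.

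Both times together, 30 rows rose at 48 h and at 96 h, 8 at 48 h and not at 96 h, 30 at 96 h and not at 48 h, and 9 at neither time. Of all tested rows 31.6% rose at 48 h and 37.3% at 96 h. How many of them share each pattern was not counted, so the patterns only sort the members. A call at a single time is not a test of a difference between the times. The 9 were Mrpl1, Mrpl17, Mrpl23, Mrpl24, Mrpl30, Mrpl52, Mrps23, Mrps30 and Mrps31. The 8 were Mrpl2, Mrpl10, Mrpl16, Mrpl43, Mrpl44, Mrpl55, Mrps2 and Mrps18a. The change in the spheroid effect was tested for itself as an interaction: 32 rows had a larger log2 fold change at 96 h than at 48 h and 1 a smaller, beside 26.9% and 26.4% of all tested rows. Their median was 0.30, against -0.02 over all tested rows. By subunit these were 18 of 48 large-subunit rows (median 0.29) and 14 of 29 small-subunit rows (median 0.32). With total-count scaling the split was 23 larger and 7 smaller, beside 2643 and 5078 of all 13951 tested rows (median -0.205). With upper-quartile scaling it was 26 and 4, beside 3254 and 4215 of all tested rows (median -0.095).

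Apart from the second row of Mrpl38, which has few counts, Mrpl33 gave the largest interaction, 1.31 ± 0.135 (SE, adjusted p = 2.29e-07). It had 56.5, 65.5 and 52.1 CPM in 48 h spheroids, against 56.5, 64.2 and 71.9 CPM in 48 h monolayers, and the groups overlapped. At 96 h it had 57.6, 60.9 and 63.3 CPM in spheroids, against 25.7, 29.5 and 26.6 CPM in monolayers, which were apart. Mrpl36 followed with 1.26 ± 0.173 and Mrps14 with 1.19 ± 0.152 (SE). Mrps36 had opposite signs at the 2 times: besides its fall at 48 h, it had 26.4, 25.5 and 25.5 CPM in spheroids, against 16.6, 18.4 and 19.9 CPM in monolayers at 96 h, an interaction of 0.81 ± 0.153 (SE, adjusted p = 0.000246). Mrpl16 was the 1 gene with a smaller effect at 96 h, where it had 19, 17.8 and 18.6 CPM in spheroids, against 14.3, 16.6 and 16.4 CPM in monolayers. Its interaction was -0.46 ± 0.16 (SE, adjusted p = 0.0219), with p of 0.0673 when replicate 1 of the 48 h monolayers was left out, 0.0534 for replicate 3 of the 96 h monolayers and 0.051 for replicate 2 of the 96 h spheroids.

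**Figure D4:**
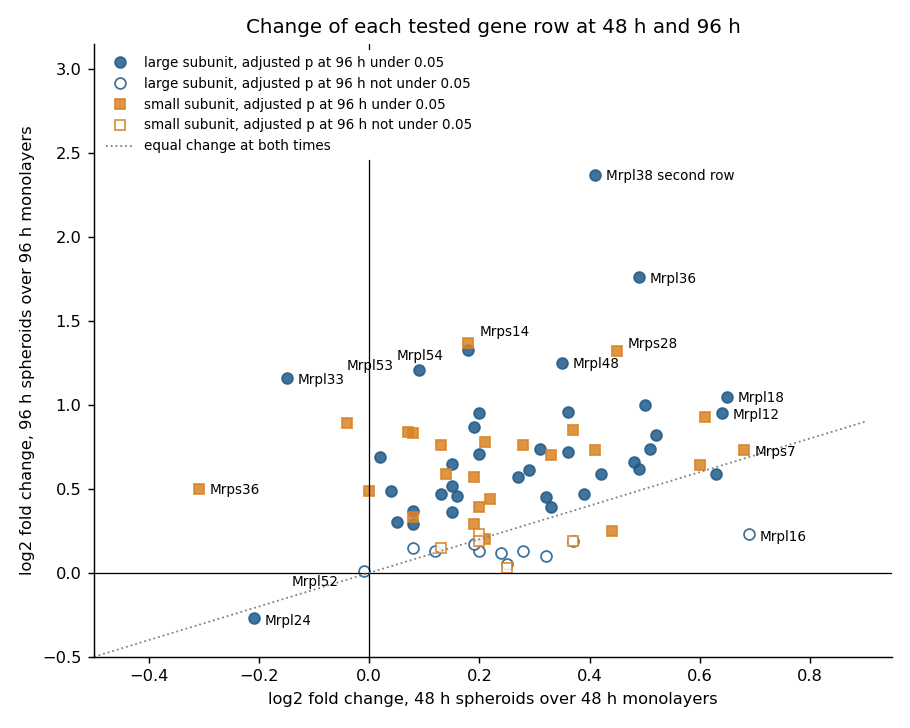
Log2 fold change of spheroids over monolayers at 48 h (x axis) and at 96 h (y axis) for the 77 tested rows, large subunit in blue circles and small subunit in orange squares, filled where the adjusted p at 96 h was under 0.05; the dotted line marks equal change at both times. Most points lie above the line and right of 0, Mrpl36 is at 0.49 and 1.76, Mrpl16 is at 0.69 and 0.23, and Mrpl24 is below 0 at both times.

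Over time, more of the genes fell than rose in monolayers, and few passed the test in spheroids. In monolayers at 96 h against monolayers at 48 h, 40 of 77 rows fell and 6 rose, beside 31.3% of all tested rows that fell and 30.1% that rose, with a median log2 fold change of -0.25 against 0.01 over all tested rows. With total-count scaling, which moved the median of all tested rows to 0.183, 21 fell and 12 rose, beside 3006 and 5879 of all 13951. In the large subunit 23 of 48 fell and 4 rose, with a median of -0.21, and in the small subunit 17 of 29 fell and 2 rose, with a median of -0.29. In spheroids at 96 h against spheroids at 48 h, 7 rows rose and 2 fell, beside 19.3% and 20.5% of all tested rows, and the median was 0.04. That split was 4 and 3 with upper-quartile scaling and 5 and 3 with total-count scaling. Over all 13951 tested rows it was 2400 and 3008 with the first and 2484 and 2948 with the other. These comparisons share libraries with those between formats.

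The largest falls in monolayers were of genes of the large subunit. Mrpl36 averaged 9.6 ± 1.06 CPM in 96 h monolayers and 22.9 ± 4.6 CPM in 48 h monolayers (SD), a log2 fold change of -1.26 ± 0.133 (SE). Mrpl33 changed by -1.24 ± 0.0988 (SE). Mrpl53, a mitochondria-only protein of the large subunit, had 12.6, 12.3 and 15 CPM in 96 h monolayers, against 25.4, 32.3 and 31.6 CPM in 48 h monolayers (-1.16 ± 0.125 SE, adjusted p = 2.94e-07). Against these, 6 genes rose in monolayers, among them Mrps18a by 0.34 ± 0.1, Mrpl16 by 0.33 ± 0.117, and Mrps2, homologue of S2, by 0.29 ± 0.0727 (log2, SE). The rise of Mrpl16 had an adjusted p of 0.0203, which was 0.113 without replicate 1 and 0.0617 without replicate 2 of the 48 h monolayers, and 0.0614 and 0.0685 without replicates 2 and 3 of the 96 h monolayers.

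In spheroids, Mrps35 gave the largest rise, with 28.2, 26.7 and 27.5 CPM at 96 h, against 20.3, 21.4 and 20.8 CPM at 48 h (0.40 ± 0.0787 SE, adjusted p = 0.000518). The times were separate for this small-subunit gene. Mrps36 rose by 0.36 ± 0.107 and Mrps21 by 0.31 ± 0.102 (SE). Mrps27, which carries RNA-binding repeats, changed by -0.25 ± 0.0862 and Mrps7 by -0.24 ± 0.0829 (SE). Except for Mrps35, leaving out 1 spheroid library raised the adjusted p of each of these 4 above 0.05, to at most 0.173: replicate 3 at 48 h for all of them, replicate 2 at 48 h for Mrps21, Mrps27 and Mrps7, replicate 2 at 96 h for Mrps21 and Mrps7, replicate 3 at 96 h for Mrps27 and Mrps7, and replicate 1 at 96 h for Mrps27.

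Of the 3 Mrps18 paralogues, Mrps18a lies in the large subunit and Mrps18b and Mrps18c in the small. Mrps18a had 23.5, 24.2 and 28.3 CPM in 48 h spheroids, against 17.9, 18.2 and 22.4 CPM in 48 h monolayers (0.37 ± 0.101 SE, adjusted p = 0.0039). At 96 h it had 27.7, 28.0 and 28.7 CPM in spheroids, against 25.2, 23 and 25.7 CPM in monolayers, which did not overlap. Its log2 difference there was 0.19 ± 0.0951 (SE, adjusted p = 0.086), with an adjusted p of 0.0411 in a fit of these 2 groups alone. With a trend on transcript length removed, as described below, it was -0.20 (adjusted p = 0.0386), a fall. The interaction of Mrps18a was -0.19 ± 0.139 (SE, adjusted p = 0.266). Mrps18c had 20.6, 25.2 and 23.5 CPM in 96 h spheroids, against 12.9, 11.9 and 13.8 CPM in 96 h monolayers (0.83 ± 0.124 SE, adjusted p = 7.63e-06). At 48 h its groups overlapped, with a log2 difference of 0.08 ± 0.121 (SE, adjusted p = 0.569), and its interaction was 0.75 ± 0.173 (SE, adjusted p = 0.00143). Mrps18b rose by 0.21 ± 0.0773 at 48 h and 0.20 ± 0.0769 at 96 h (SE), both near the threshold (adjusted p = 0.0258 and 0.0244). The call at 48 h was lost with DESeq2 (adjusted p = 0.0967), and that at 96 h with upper-quartile scaling (adjusted p = 0.218). These calls held in 14 and 13 of 22 alternative settings.

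Genes at the decoding centre and genes of human mitochondrial disease were described whatever their values. Mrps12, homologue of S12 at the decoding centre, had 30.3, 30.9 and 33.7 CPM in 96 h spheroids, against 17.5, 17.6 and 20 CPM in 96 h monolayers (0.78 ± 0.0882 SE, adjusted p = 2.52e-07). Its value at 48 h, 0.21 ± 0.088 (SE), was at the threshold with an adjusted p of 0.049, which rose to 0.103 with DESeq2's size factors. That call held in only 6 of 22 alternative settings. Mrps34, a mitochondria-only protein and the gene of a human disease, rose by 0.37 ± 0.108 at 48 h and 0.85 ± 0.111 at 96 h (SE). Mrps16, homologue of S16, rose at 96 h by 0.59 ± 0.124 (SE, adjusted p = 0.000338), and at 48 h its log2 difference was 0.14 ± 0.125 (SE, adjusted p = 0.357). Mrps22 rose by 0.44 ± 0.107 at 48 h and 0.25 ± 0.104 at 96 h (SE), and the adjusted p at 96 h, 0.0363, was 0.182 with upper-quartile scaling. Its call at 96 h held in only 9 of 22 alternative settings. Mrpl3, homologue of L3, rose at 96 h by 0.29 ± 0.0743 (SE), with 0.08 ± 0.0746 (SE) at 48 h. Mrpl44, related to ribonuclease III, rose at 48 h by 0.24 ± 0.0862 (SE, adjusted p = 0.0241, and 0.14 with DESeq2), a call that held in 13 of 22 alternative settings. At 96 h its log2 difference was 0.12 ± 0.0838 (SE, adjusted p = 0.212). Mrps30 did not pass at either time, with 0.20 ± 0.112 and 0.23 ± 0.112 (SE). The rows of Mrpl4, Mrpl13, Mrpl33, Mrpl51, Mrps2, Mrps11 and Mrps17 merge several spellings of a gene's name; of them Mrpl4, Mrpl51 and Mrps2 rose at 48 h, and all but Mrps2 rose at 96 h.

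Transcript length moved with the changes. An effective length was computed for each row from its count and its FPKM, and the 77 members had a median of 1021 bases, against 2744 bases over the 13428 tested rows with such a length. At 96 h, all tested rows under 1000 bases rose in spheroids in 58.3% and fell in 18.1% of cases, with a median log2 fold change of 0.46, whereas rows of 1000 bases or more rose in 36.7% and fell in 37.9%, with a median of -0.02. Members under 1000 bases rose in 28 of 35 cases (median 0.65), and members of 1000 bases or more in 32 of 42 (median 0.49). Mrps14 at 1971 bases and Mrpl53 at 1629 bases were among the members with the largest changes, as were Mrpl54 at 552 and Mrpl33 at 434 bases. In monolayers at 96 h against monolayers at 48 h, all tested rows under 1000 bases fell in 46.1% of cases (median -0.27) and longer rows in 31.0% (median 0.03). Members under 1000 bases fell in 23 of 35 cases (median -0.35) and longer members in 17 of 42 (median -0.17). At 48 h members of 1000 bases or more rose in 26 of 42 cases (median 0.26; 32.1% of all longer rows rose) and shorter members in 12 of 35 (median 0.19; 30.9% of all shorter rows rose). The interaction was larger at 96 h for 20 of 35 members under 1000 bases (57.1%), beside all rows of that length with 42.1% larger and 12.6% smaller. Of members of 1000 bases or more it was larger for 12 of 42 (28.6%) and smaller for 1, beside 26.6% and 27.5% of all longer rows.

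With a smooth trend on length removed from each library, an alternative added after the data had been seen, 44 of 77 members (57.1%) rose and 6 (7.79%) fell at 96 h, beside 40.2% and 35.3% of all 13428 rows in that setting. At 48 h 25 members (32.5%) rose, beside 30.0% of all rows, and 5 (6.49%) fell, beside 31.7%. Over time in monolayers 26 (33.8%) fell and 13 (16.9%) rose, beside 33.4% and 29.8% of all rows. The shares of rises at 48 h and of falls in monolayers were thus close to those over all rows. Over time in spheroids 16 (20.8%) rose and 2 (2.6%) fell, beside 31.0% and 18.5%, and the interaction was larger for 29 (37.7%) and smaller for 9 (11.7%), beside 34.1% and 23.2%. The short Mrpl52, at 296 bases, then had a log2 fold change of -0.70 at 96 h. The rises of Mrps36 and Mrps16 at 96 h were 0.03 each with that setting and did not pass.

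**Figure D5:**
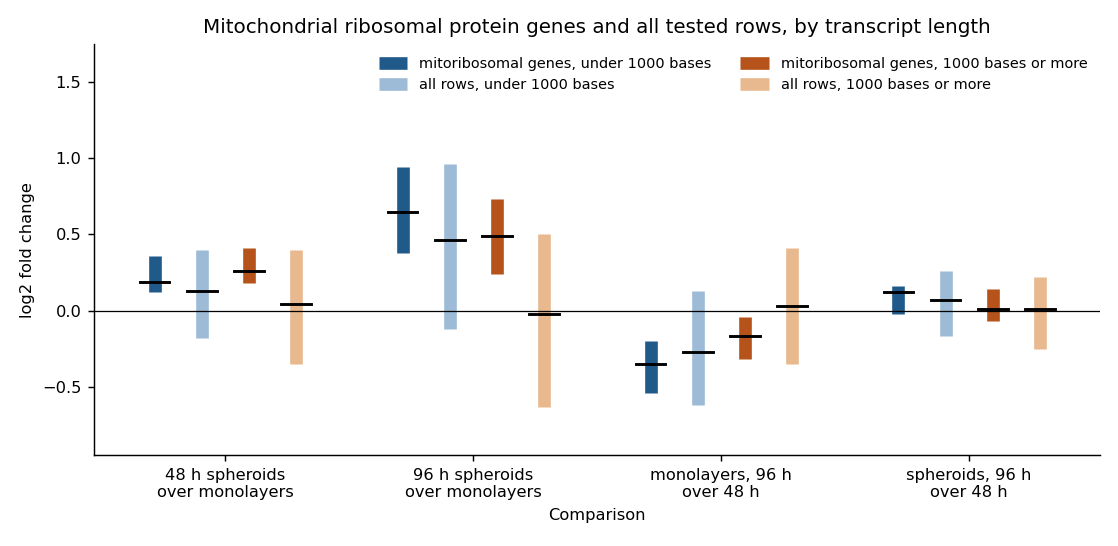
Median (black line) and middle 50% (bar) of the log2 fold change in 4 comparisons, for mitochondrial ribosomal protein genes and for all tested rows, split at an effective length of 1000 bases. At 96 h the medians are 0.65 for short members, 0.46 for all short rows, 0.49 for longer members and -0.02 for all longer rows.

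Promoters were read for the 67 of 76 symbols that matched the RefSeq promoter table of build GRCm38.p6, as 250 bases before and 50 bases after the start of the gene. Without an entry were Mrpl4, Mrpl13, Mrpl15, Mrpl19, Mrpl38, Mrpl54, Mrps28, Mrps34 and Mrps35. 4 motifs of factors known for regulating nuclear genes of mitochondria were searched on both strands: that of NRF1, of the ETS family, which includes GABPA (CCGGAAG), of YY1 (AANATGGCG), and the E-box of MYC (CACGTG). ETS letters were present in 23 of 67 promoters (34.3%), against 9.1% of all 27025 promoters in the table, and NRF1 letters in 12 (17.9%, against 4.8%). YY1 letters were present in 10 (14.9%, against 2.5%) and the E-box in 5 (7.5%, against 7.2%). By subunit, ETS letters were in 12 of 41 large-subunit and 11 of 26 small-subunit promoters. The members' promoters also had a median G+C content of 58.0% and a median of 21 CpG pairs, against 52.7% and 7 for all promoters, and the motifs hold CpG. A window of a gene on the opposite strand overlapped that of 21 members (31.3%, against 10.3% of all promoters), in each case head to head. The promoters printed are of Mrpl36, which had the largest change of the well-expressed members and holds an E-box and YY1 letters, of Mrpl12 with NRF1 letters, of Mrpl53 with ETS letters, and of Mrpl46 and Mrps11, a large-subunit and a small-subunit gene that start 42 bases apart. Each reads 5′ to 3′ on the strand of the gene, and capitals mark the motif letters.
Mrpl36, chr13:73330759-73331058, + strand: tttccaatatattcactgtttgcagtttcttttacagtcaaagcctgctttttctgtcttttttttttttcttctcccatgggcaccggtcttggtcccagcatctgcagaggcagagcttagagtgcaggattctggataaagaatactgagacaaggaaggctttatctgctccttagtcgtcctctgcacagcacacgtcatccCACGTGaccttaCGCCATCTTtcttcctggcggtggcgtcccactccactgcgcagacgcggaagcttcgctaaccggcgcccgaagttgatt
Mrpl12, chr11:120484387-120484686, + strand: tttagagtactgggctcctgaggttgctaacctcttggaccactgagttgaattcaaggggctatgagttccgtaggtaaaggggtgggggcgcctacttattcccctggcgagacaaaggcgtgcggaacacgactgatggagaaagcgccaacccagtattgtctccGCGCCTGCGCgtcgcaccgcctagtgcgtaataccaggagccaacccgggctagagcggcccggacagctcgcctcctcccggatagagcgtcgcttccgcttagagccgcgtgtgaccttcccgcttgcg
Mrpl53, chr6:83108858-83109157, + strand: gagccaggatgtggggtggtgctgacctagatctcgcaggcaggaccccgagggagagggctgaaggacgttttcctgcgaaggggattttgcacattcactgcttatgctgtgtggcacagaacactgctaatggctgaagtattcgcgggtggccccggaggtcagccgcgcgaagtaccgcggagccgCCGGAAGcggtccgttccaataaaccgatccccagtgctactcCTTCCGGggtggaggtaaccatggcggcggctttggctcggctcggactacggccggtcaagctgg
Mrpl46, chr7:78783040-78783339, - strand: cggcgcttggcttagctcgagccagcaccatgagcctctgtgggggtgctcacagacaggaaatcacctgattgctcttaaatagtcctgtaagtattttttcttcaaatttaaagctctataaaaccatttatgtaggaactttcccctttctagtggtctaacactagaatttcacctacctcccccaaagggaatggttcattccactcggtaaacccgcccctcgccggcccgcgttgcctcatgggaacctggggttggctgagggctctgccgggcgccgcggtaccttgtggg
Mrps11, chr7:78782881-78783180, + strand: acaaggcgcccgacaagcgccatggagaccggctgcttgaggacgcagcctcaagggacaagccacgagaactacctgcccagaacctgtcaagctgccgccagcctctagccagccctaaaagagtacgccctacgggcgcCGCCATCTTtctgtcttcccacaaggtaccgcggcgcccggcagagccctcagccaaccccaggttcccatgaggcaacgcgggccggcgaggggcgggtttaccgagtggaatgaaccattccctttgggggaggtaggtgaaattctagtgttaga

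In Mrpl36 the E-box began at position -43 and the YY1 letters at -31, counted from the first base of the gene as 0. In Mrpl12 the NRF1 letters began at -81, and in Mrpl53 the ETS letters at -59 and -16. Mrps11 had YY1 letters at -108, and the Mrpl46 window held none of the 4 motifs. At 96 h, of this head-to-head pair, Mrpl46 had 17.0, 19.8 and 19.1 CPM in spheroids, against 12.1, 12 and 12.6 CPM in monolayers (0.61 ± 0.111 SE, adjusted p = 8.08e-05), and Mrps11 had 12.5, 14.6 and 14.8 CPM in spheroids, against 8.23, 8.63 and 7.93 CPM in monolayers (0.76 ± 0.131 SE, adjusted p = 4e-05). Both pairs of groups were separate. At 48 h Mrpl46 rose by 0.29 ± 0.113 (SE, adjusted p = 0.0359), and Mrps11 had a log2 difference of 0.13 ± 0.128 (SE, adjusted p = 0.393). Mrps12 starts 147 bases away, head to head, from Sars2, the mitochondrial seryl-tRNA synthetase. Sars2 had 16.1, 14.1 and 13.7 CPM in 96 h spheroids, against 6.95, 6.51 and 7.31 CPM in 96 h monolayers (1.07 ± 0.112 SE, adjusted p = 8.76e-08). No source used here gives the strand setting of the counting, so reads near the starts of such close neighbours may be shared.

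Some subunits of the mitochondrial ribosome carry other names. Of 7 tested, 5 rose at 48 h (median 0.29; 31.6% of all tested rows rose) and 7 at 96 h (median 0.70; 37.3% of all), and 6 fell over time in monolayers (median -0.42; 31.3% of all). Dap3, the small-subunit protein of the head that binds GTP, had 61.2, 63.1 and 64.7 CPM in 96 h spheroids, against 44.1, 43.7 and 40.2 CPM in 96 h monolayers (0.56 ± 0.0708 SE, adjusted p = 9.92e-07). Mrp63, a large-subunit protein now called Mrpl57, had the largest rise of the list at each time, and at 96 h had 22.0, 29.1 and 22.1 CPM in spheroids, against 7.51, 7.38 and 11.2 CPM in monolayers (1.47 ± 0.151 SE, adjusted p = 6.4e-08). Both were separate between the formats.

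Other genes that serve mitochondrial translation were described from lists by role, to be read against all tested rows, of which 31.6% rose and 26.4% fell at 48 h, and 37.3% rose and 36.5% fell at 96 h. Of 22 tested genes of ribosome assembly and rRNA modification, 8 (36.4%) rose and 2 (9.09%) fell at 48 h (median 0.02), and 11 (50%) rose and 2 (9.09%) fell at 96 h (median 0.21). Trmt61b, an RNA methyltransferase, had the largest rise at 96 h (0.92 ± 0.124 SE), and Rnmtl1, which methylates the large ribosomal RNA, at 48 h (0.58 ± 0.191 SE). Mrm1, another methyltransferase of that RNA, fell at both times, averaging 6.13 ± 0.317 CPM in 96 h spheroids and 12.2 ± 1.08 CPM in 96 h monolayers (SD; -0.99 ± 0.137 SE, adjusted p = 3.38e-06). Of 19 translation factors, 11 (57.9%) rose and 1 (5.26%) fell at 48 h (median 0.40), and 8 (42.1%) rose and 3 (15.8%) fell at 96 h (median 0.20). Among them Pdf, the peptide deformylase, rose by 0.67 ± 0.203 at 48 h and 1.35 ± 0.216 at 96 h. Mtfmt, which formylates the initiator tRNA, fell by 0.29 on the log2 scale at 48 h (SE 0.116, adjusted p = 0.0409), and Mtrf1, a release factor homologue, fell by 0.54 at 96 h (SE 0.185, adjusted p = 0.014).

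Of 17 mitochondrial aminoacyl-tRNA synthetases, which load tRNAs, 12 (70.6%) rose and 1 (5.88%) fell at 48 h (median 0.45), and 11 (64.7%) rose at 96 h (median 0.32). Cars2, for cysteine, averaged 21.0 ± 1.14 CPM in 48 h spheroids and 11.3 ± 0.25 CPM in 48 h monolayers (SD; 0.89 ± 0.0989 SE). Mars2, for methionine, averaged 16.9 ± 1.81 CPM in 96 h spheroids and 7.33 ± 2.02 CPM in 96 h monolayers (SD; 1.18 ± 0.174 SE). The gene that fell at 48 h was Lars2, with 178, 121 and 239 CPM in spheroids, against 236, 178 and 1670 CPM in monolayers. Its log2 fold change was -1.95 ± 0.578 (SE, adjusted p = 0.00735); leaving out the monolayer library at 1670 CPM gave -0.21 ± 0.273 (SE, adjusted p = 0.538).

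For transcription and upkeep of mitochondrial DNA, 5 of 13 tested genes (38.5%) rose and 1 (7.69%) fell at 48 h (median 0.18), and 4 (30.8%) rose at 96 h (median 0.06). The shares of rises were near the 31.6% and 37.3% of all tested rows. Polrmt, the mitochondrial RNA polymerase, had 26.0, 27.9 and 25 CPM in 48 h spheroids, against 16.8, 17.6 and 16.8 CPM in 48 h monolayers (0.62 ± 0.084 SE, adjusted p = 4.04e-06), and at 96 h it rose by 0.30 ± 0.0785 (SE). Tfam, which packages and transcribes mitochondrial DNA, rose at 96 h by 0.42 ± 0.0887 (SE, adjusted p = 0.000334), with 0.05 ± 0.0926 (SE) at 48 h. Lonp1, a matrix protease, fell by 0.37 on the log2 scale at 48 h (SE 0.0576). Of the 13 proteins encoded in mitochondria, only mt-Nd4 was found among the rows by its symbol. It had 4930, 4170 and 4680 CPM in 96 h spheroids, against 6380, 7840 and 5990 CPM in 96 h monolayers (-0.55 ± 0.11 SE, adjusted p = 0.000188), and the groups did not overlap.

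Of 11 regulators of nuclear genes of mitochondria, 7 (63.6%) rose and 3 (27.3%) fell at 48 h (median 0.42), and 7 (63.6%) rose and 2 (18.2%) fell at 96 h (median 0.36). Ppargc1b, a coactivator of such genes, had 4.26, 4.17 and 5.45 CPM in 48 h spheroids, against 1.08, 1.41 and 0.984 CPM in 48 h monolayers (1.98 ± 0.237 SE, adjusted p = 9.3e-07). At 96 h it had 4.74, 5.02 and 5.86 CPM in spheroids, against 2.0, 2.50 and 2.20 CPM in monolayers (1.23 ± 0.205 SE, adjusted p = 2.77e-05). Its relative Ppargc1a rose by 2.16 ± 0.417 at 48 h and 1.11 ± 0.248 at 96 h (SE), at averages of 0.456 to 6.41 CPM over the groups. Myc, which drives growth genes, averaged 158 ± 2.87 CPM in 96 h spheroids and 111 ± 5.11 CPM in 96 h monolayers (SD; 0.52 ± 0.0665 SE), and 0.56 ± 0.0657 (SE) was its log2 fold change at 48 h. Nrf1, whose motif was searched above, rose at 96 h by 0.52 ± 0.098 (SE, adjusted p = 0.000103), with 0.20 ± 0.0976 (SE, adjusted p = 0.0922) at 48 h. Gabpa, of the ETS family whose motif was also searched, was lower in spheroids. It had 58.2, 51.7 and 53.9 CPM in 48 h spheroids, against 65.6, 62.7 and 69.9 CPM in 48 h monolayers. At 96 h Gabpa had 62.4, 58.1 and 61.8 CPM in spheroids, against 84.2, 72.6 and 85.2 CPM in monolayers. Mycn, a relative of Myc, was at 0.00, 0.116 and 0.111 CPM in 48 h spheroids, against 5.19, 4.89 and 7.60 CPM in 48 h monolayers, and at 0.306, 0.00 and 0.223 CPM in 96 h spheroids, against 4.88, 3.75 and 5.90 CPM in 96 h monolayers. Both falls passed the test (adjusted p = 1.74e-08 and 2.16e-08); with 0 to 4 reads per spheroid library no fold is given.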

How the data were processed

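The deposited table holds expected counts per gene that the authors made with RSEM 1.2.30 and Bowtie 1.0.1 on mouse build mm9 after bcl2fastq 2.15.0, per the submitters' processing notes, rounded to whole numbers as deposited. A second deposited table holds log2(FPKM + 1) values of the same rows and libraries; FPKM was recovered from it. Rows with low counts were removed with filterByExpr (minimum count 10, minimum total 15), and 13951 of 28427 rows were fitted with edgeR 4.0.16 (TMM scaling, quasi-likelihood test, the 4 groups of 3 libraries together), with Benjamini-Hochberg adjustment over all rows tested and a threshold of 0.05. SE is the log2 fold change divided by the root of the F statistic. A count of 3 corresponds to 0.221 to 0.391 CPM, a floor that covers counting error only. The fit was run on simulated counts as a check of the code. That simulation had a single spread for all rows and far fewer changed rows than these data. It therefore does not bear on calls near the threshold. Alternatives used DESeq2 1.42.0, limma 3.58.1, other scalings and filters, a replicate block and each library left out. Effective lengths came from count and FPKM where counts reached 20. R 4.3.3 and Python 3.11.15 were used.

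Named members were the 5 largest rises and falls between formats and the 3 largest over time or in the interaction, past the threshold, if their mean log2 CPM reached 3 (and, between formats, the groups did not overlap), plus genes by role, by highest and lowest level and rows that merge names or failed the filter. Members and lists were chosen with earlier results of these data known. Genes named outside this rule (Mrpl46 and Mrps11 as a pair, Dap3, Sars2, Gabpa, Mrpl24 at 48 h, the 9 and 8 rows called at neither time or at 48 h alone) were chosen after their values were seen. Libraries with the same replicate number did not deviate together, and whether equal numbers mark a shared source is not stated. No source used here gives the strand setting or says whether libraries come from separate animals.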

Additional observations from a re-analysis of the deposited data

Results flagged for a closer look

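The spheroid effect, spheroids over monolayers, differed between 96 h and 48 h by the interaction test (edgeR's quasi-likelihood test, Benjamini-Hochberg adjusted) for 20 of the named members, given here as the log2 effect at 96 h minus that at 48 h. In the large subunit the differences were 1.31 for Mrpl33, 1.26 for Mrpl36, 1.15 for Mrpl54, 1.12 for Mrpl53, 0.90 for Mrpl48, 0.67 for Mrpl13, 0.41 for Mrpl18 and 0.31 for Mrpl12. The second row of Mrpl38 had 1.96 at few counts, and Mrpl16 had -0.46. In the small subunit the differences were 1.19 for Mrps14, 0.87 for Mrps28, 0.76 for Mrps21, 0.75 for Mrps18c, 0.63 for Mrps11, 0.57 for Mrps12, 0.48 for Mrps34, 0.48 for Mrps35 and 0.45 for Mrps16. Mrps36, named as a small-subunit gene, had 0.81. All but Mrpl16 had the larger effect at 96 h. Some members were named because their change at 96 h or their interaction was among the largest. The count of 20 and its direction therefore follow in part from that choice. Over all 77 tested members the effect was larger at 96 h for 32 and smaller for 1, beside 26.9% and 26.4% of all tested rows.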

How the results depend on the processing

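Of the counts of members called, that of rises at 96 h stayed within 1.5 times of 60 in every alternative run. Rises at 48 h numbered 59 with limma on log2(FPKM + 1), 25 with the length trend removed and 29 to 49 with single libraries left out. The counts over all 13951 tested rows moved with the setting as well: at 48 h 5342 rose and 2855 fell with limma, against 4402 and 3679 in the main fit. Falls at 48 h numbered 0 with total-count scaling, 0 with limma, 1 with the replicate block, 5 with the length trend removed and 0 to 3 with libraries left out (0 without replicate 2 or 3 of the 48 h monolayers or replicate 3 of the 48 h spheroids). Falls at 96 h numbered 2 with no filter and 6 with the length trend removed. Over time in monolayers, rises numbered 12 with total-count scaling, 11 with limma and 13 with the length trend removed, and falls 21, 22 and 26 in those settings. Of all tested rows, 5879 rose and 3006 fell there with total-count scaling, and 5664 and 3020 with limma, against 4196 and 4360 in the main fit. Over time in spheroids, rises numbered 4 with upper-quartile scaling, 4 with DESeq2, 11 with only the 2 groups compared, 16 with the length trend removed and 2 to 11 with libraries left out; falls numbered 1 with DESeq2, 1 with no filter, 5 with only the 2 groups and 0 to 4 with libraries left out. Smaller interactions numbered 4 with upper-quartile scaling, 7 with total-count scaling, 9 with limma, 3 with a minimum count of 50, 9 with the length trend removed and 0 to 3 with libraries left out. Of all tested rows, 4215, 5078 and 4904 were smaller in the first 3 of these settings, against 3683 in the main fit. The difference of subunit medians (large minus small) at 96 h was 0.09 with the length trend removed, -0.126 by structural placement and -0.045 to 0.012 with libraries left out. In monolayers over time it was 0.036, 0.111 and 0.058 to 0.095 in those settings. For the interaction it was -0.055 with limma, 0.01 with the length trend removed, -0.075 by structural placement and -0.083 to -0.01 with libraries left out. At 48 h it was 0.031 to 0.081 and in spheroids over time -0.075 to -0.032 with libraries left out. Signs turned for Mrpl52 at 48 h (0.10 with total-count scaling, 0.11 with limma, -0.11 to 0.10 with libraries left out, 0.03 and 0.00 among them) and at 96 h (-0.01 with DESeq2-type size factors and with DESeq2, -0.08 with upper-quartile scaling, -0.07 with total-count scaling and limma, -0.05 with a minimum count of 50, -0.02 to 0.06 with libraries left out, -0.70 with the length trend removed). With the length trend removed, signs also turned for Mrps16 (-0.09) and Mrps18c (-0.15; 0.00 to 0.23 with libraries left out) at 48 h, and for Mrpl44 (-0.03), Mrps18a (-0.20) and Mrps18b (-0.09) at 96 h. Without 48 h monolayer replicate 1 or 48 h spheroid replicate 2, Mrpl33 fell at 48 h (-0.24 in both). The cause of these changes was not tested. Same-numbered replicates did not deviate together (correlations -0.0576 to 0.0791); with the replicate block 39 members rose and 1 fell at 48 h, and 60 rose and 1 fell at 96 h. With 3 libraries a group, small differences such as those near a log2 of 0.20 lie at the threshold.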
